A study of Mus musculus with 18 samples.

Results

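Solute carriers are membrane proteins that move amino acids, metals, sugars, ions, nucleosides and vitamins into and out of the cell and its compartments. The genes described here were the 54 solute carrier genes that gave a usable signal on the array during 30 h of erythroid maturation, out of 8251 genes with a probe set of their own. A gene was a member if its platform symbol began with Slc and a digit, if a probe set of its own carried that symbol alone, and if the mean deposited signal of its brightest such probe set over the 18 arrays was at least 50. The chloride-bicarbonate exchanger Slc4a1, the glucose carrier Slc2a1 and all mitochondrial Slc25a carriers were left out. Of 151 solute carrier symbols on the array, 22 were left out in this way and 129 were eligible. The mean signal of 75 of those stayed below 50. Members were thus chosen by their mean signal, and 8 of the 54 (Slc44a2, Slc6a18, Slc1a4, Slc50a1, Slc22a18, Slc6a4, Slc16a8 and Slc22a5) would have fallen under 50 if the time at which they were brightest had been set aside. Just inside the minimum lay Slc6a4 with a mean signal of 51.4, Slc16a8 with 50.9 and Slc22a5 with 50.7, and just outside it Slc6a2 with 49.6, Slc35e1 with 47.5 and Slc35a2 with 47.1. The rule works on names, so it also took in 3 proteins that bind carriers and belong to no carrier family: the scaffolds Slc9a3r1 and Slc9a3r2 and kanadaptin, Slc4a1ap.

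The cells were G1E-ER4, a mouse line of red cell precursors that came from embryonic stem cells in which Gata-1 had been disrupted. Gata-1 is the transcription factor that drives erythroid genes. The ER4 line is 1 subclone, and every group carried the same Gata-1-ER fusion, in which the estradiol-binding domain keeps Gata-1 inactive until hormone is given. Arrays were made without estradiol (0 h) and 3, 7, 14, 21 and 30 h after it was added. Each time had 3 biological replicates, A, B and C. No untreated culture was kept to 30 h beside the treated ones, and no cells without the fusion received estradiol, so time in culture, the hormone itself and Gata-1 activity cannot be told apart here. Every comparison with 0 h used the same 3 arrays at 0 h.

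Maturing red cells make hemoglobin in great amounts and shrink as they do so. Heme is built from glycine, succinyl-coenzyme A and iron, globin from amino acids, and the pumps, exchangers and cotransporters of the membrane set the volume and pH of the finished cell. Carriers of the SLC6, SLC7 and SLC38 families bring in amino acids, SLC30, SLC31, SLC39 and SLC11 carriers move zinc, copper, manganese and iron, SLC44 proteins carry choline for membrane lipids, and SLC29 and SLC35 proteins move nucleosides and nucleotide sugars.

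Signals were linear values, and the 2% trimmed mean of each array was 150.1, which shows a scaling to 1 shared mean. Array medians ran from 38.2 to 50.9, and 47.7% of the 12422 probe sets tested had a mean of at least 50. Changes are log2 differences of (signal + 16) after quantile normalization, which understates the change of dim genes, and ± marks the SD of 3 arrays unless SE is named. A gene was called when limma's Benjamini-Hochberg adjusted p over all 12422 probe sets was below 0.05. The labels do not say whether each time had cultures of its own, so the p-values measure the spread between these samples of 1 line, and the number of arrays limits the precision. Erythroid marker genes were measured as a check of the labelled cell type. Signal of Alas2, the erythroid enzyme that starts heme synthesis, went from 108 to 12476 at 30 h and that of Klf1 from 1303 to 2748, and the summed signal of 9 erythroid genes ran from 11763 to 14651 at 0 h and from 54661 to 66578 at 30 h. Of 12 erythroid genes listed 9 were measured. Of these 9, 6 were called higher and 1 lower at 30 h, and 1 higher and 1 lower at 3 h. Of 10 neutrophil and macrophage, 7 lymphocyte, 8 fibroblast, 4 megakaryocyte and 5 embryonic stem cell genes none was called at 30 h by limma, and 1 of the fibroblast genes alone had an unadjusted p below 0.05. At other times 2 of these genes were called: the megakaryocyte gene Gp9 was higher at 14 h and 21 h (30.8 at 0 h, 118 and 99.3), and the fibroblast gene Dcn lower at 21 h (22.4 to 3.9). The summed signal of the megakaryocyte genes was 141 to 222 at 14 h and 140 to 156 at 21 h. In the order given, the summed signals of these lists at 0 h and 30 h were 396 to 464 and 526 to 763, 165 to 224 and 137 to 245, 606 to 684 and 747 to 1031, 72.2 to 81.7 and 81 to 93.6, and 63.1 to 83 and 36.3 to 76.3. Of 7 mast cell genes Cma1 was called higher (9.73 to 64.2) and Cpa3 and Tpsb2 lower, with summed signals of 214 to 257 and 132 to 176. Whether any of these moved with the carriers was not tested. In bulk RNA, fewer cells of a type and less RNA per cell cannot be told apart.

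At 30 h, 22 of the 54 genes differed from 0 h, 12 of them higher and 10 lower. Among these were Slc44a2 and Slc1a4, which passed the minimum only through their 30 h and 0 h arrays, and of the 46 genes that did not depend on 1 time 11 were higher and 9 lower. Across the array 26.7% of all probe sets were called in this comparison, 12.8% higher and 13.8% lower, and 49.2% of those with a mean signal of at least 50, so the share of solute carrier genes (40.7%) lay between these values. The largest rises were those of the glutamine and histidine carrier Slc38a5, the copper importer Slc31a1 and the zinc and manganese importer Slc39a8, each over 5-fold, and the largest fall by the probe sets that met the rule was that of the nucleoside carrier Slc29a1. The median change of the 54 genes was 0.21, against 0.05 for all probe sets and 0.07 for those with a mean of at least 50. The arrays at 30 h and 0 h did not overlap for 24 of the 54 genes (44.4%), where 37.5% of all probe sets did not overlap. That background includes dim probe sets, which the 54 genes by their rule do not. The share without overlap was not computed for probe sets with a mean of at least 50. An excess among the 54 genes can therefore not be read from these shares.

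**Figure D1:**
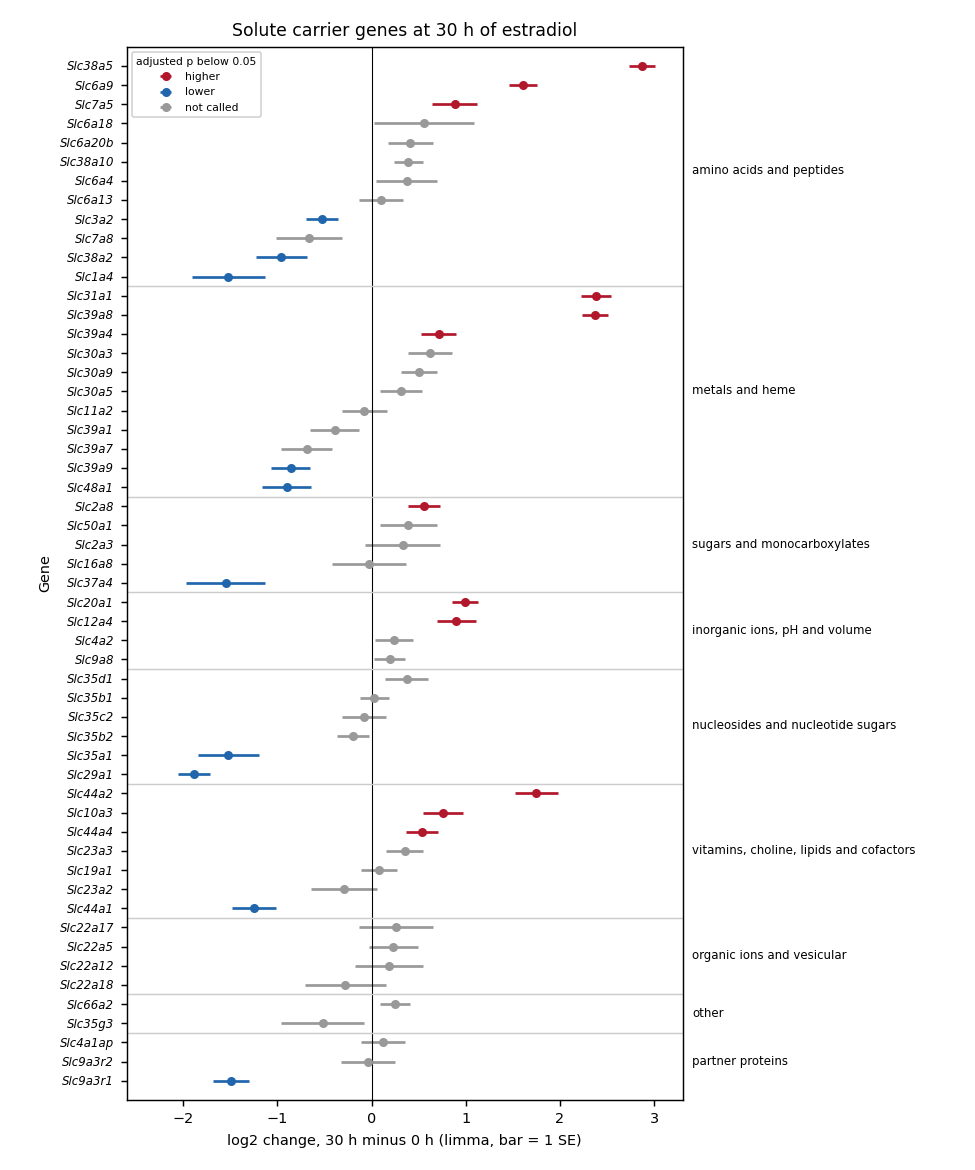
Change of each of the 54 solute carrier genes at 30 h, as limma's log2 change from 0 h (horizontal axis) with 1 SE, sorted within substrate groups; red marks genes called higher, blue genes called lower and grey genes not called at an adjusted p below 0.05. Both directions occur among amino acid, metal, sugar and choline carriers, and Slc38a5 lies farthest to the right at 2.87.

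Slc38a5 (probe set 160907_at) is a sodium-coupled carrier of glutamine, asparagine and histidine. Its signals in replicates A, B and C were 108, 135 and 112 at 0 h, 108, 111 and 128 after 3 h, 175, 215 and 199 after 7 h, 457, 530 and 565 after 14 h, 804, 882 and 752 after 21 h, and 1127, 972 and 845 after 30 h. From 7 h on, every array lay above every array at 0 h. The log2 change was 0.67 at 7 h (SE 0.14, limma adjusted p = 0.00675) and 2.87 at 30 h, a 7.33-fold rise (SE 0.14, limma adjusted p = 1.23e-11). The step from 7 h to 14 h, 1.38, was its largest and was called too (limma adjusted p = 1.82e-05).

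Slc39a8 (97442_at) encodes ZIP8, which brings zinc, manganese and iron into the cytosol. Its signals were 231, 216 and 233 at 0 h, 400, 324 and 265 after 3 h, 560, 425 and 422 after 7 h, 619, 679 and 598 after 14 h, 820, 948 and 1046 after 21 h, and 1270, 1276 and 1250 after 30 h. The mean rose at every step, which was so for 2 of the 54 genes, the other being Slc39a4. All arrays with estradiol lay above those at 0 h, and at 30 h the 3 replicates differed by little (1265 ± 13.2). The change at 30 h was 2.37 (SE 0.14, limma adjusted p = 1.87e-10), a 5.16-fold rise, and the gene was called from 7 h on.

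Slc31a1 (101877_at) encodes CTR1, the main importer of copper, the metal of cytochrome oxidase and superoxide dismutase. Its course had 2 stages. Signals were 304, 257 and 242 at 0 h, 523, 555 and 407 after 3 h, 572, 423 and 482 after 7 h, 498, 571 and 582 after 14 h, 786, 1226 and 1199 after 21 h, and 1406, 1680 and 1554 after 30 h. Values at 3, 7 and 14 h overlapped one another and lay above all 3 at 0 h, and those at 21 h and 30 h lay above all earlier ones. The change was 0.84 at 3 h (SE 0.16, limma adjusted p = 0.00922), a call lost without 0 h replicate B or C or 3 h replicate A or B (adjusted p 0.0506 to 0.069) and from the compared times alone (0.0549), and 2.38 at 30 h (SE 0.16, limma adjusted p = 1.05e-09). A second probe set of the gene, 103845_at, rose from 244 to 876 (1.73, SE 0.23, limma adjusted p = 6.16e-06).

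The start regions of these 3 genes are shown because they are the largest rises, from 250 bases before to 50 after the start of the RefSeq transcript (build GRCm38.p6, 5′ to 3′ on the gene's strand). Capitals mark the words searched on either strand. The GATA words were AGATAA with AGATAG, as well as TGATAA with TGATAG, the Klf word was CCACCC and the E box word CACGTG. The core of the amino acid response element was TTGCATC, and the AP-1 word was TGACTCA. A word read from the opposite strand appears as its reverse complement, so that TTATCT is AGATAA and GGGTGG is CCACCC. None of these words overlaps another in the windows printed. Slc39a8 had 2 windows, and the one with words is printed.
Slc38a5, chrX:8271131-8271430, plus strand: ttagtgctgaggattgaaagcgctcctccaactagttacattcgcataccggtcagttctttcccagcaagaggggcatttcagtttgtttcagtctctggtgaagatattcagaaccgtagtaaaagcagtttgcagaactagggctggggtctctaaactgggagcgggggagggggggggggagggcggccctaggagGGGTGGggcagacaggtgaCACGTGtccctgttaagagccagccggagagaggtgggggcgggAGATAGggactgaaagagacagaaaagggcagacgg
Slc39a8, chr3:135825407-135825706, plus strand: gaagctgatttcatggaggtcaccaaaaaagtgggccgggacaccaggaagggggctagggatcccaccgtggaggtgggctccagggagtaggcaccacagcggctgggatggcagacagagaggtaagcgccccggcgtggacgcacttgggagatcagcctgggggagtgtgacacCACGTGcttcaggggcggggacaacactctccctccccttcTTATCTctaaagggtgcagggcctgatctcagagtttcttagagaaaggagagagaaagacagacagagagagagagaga
Slc31a1, chr4:62360451-62360750, plus strand: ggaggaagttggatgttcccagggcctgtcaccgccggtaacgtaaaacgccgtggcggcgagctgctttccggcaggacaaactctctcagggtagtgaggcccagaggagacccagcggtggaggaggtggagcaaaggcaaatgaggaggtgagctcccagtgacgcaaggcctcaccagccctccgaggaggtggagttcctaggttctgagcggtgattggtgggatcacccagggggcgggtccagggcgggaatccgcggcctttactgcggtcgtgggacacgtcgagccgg
Counted from 1 at the 5′ end of the window, Slc38a5 held CCACCC on the opposite strand at 202 to 207, CACGTG at 221 to 226 and AGATAG at 265 to 270. In the window of Slc39a8, CACGTG stood at 180 to 185 and AGATAA on the opposite strand at 221 to 226. The Slc31a1 window held none of these letters, and such a match or its absence is a description of the letters alone. RefSeq windows were found for 46 of the 54 genes. A GATA word stood in a window of 12 of the 46 (26.1%), against 29.8% of all 32851 windows and 21.1% of genes on the array with a mean signal of at least 50, counted over any window of a gene as here. CCACCC stood in 26 of 46 (56.5%), against 31.5% of all windows and 41.1% of such genes, and in 5 of 9 that rose and 5 of 9 that fell. CACGTG stood in 5 of 46 (10.9%), against 7.15% of all windows and 13.6% of such genes. TTGCATC stood in 3 of 46 (6.52%), against 2.53% and 2.31%, and TGACTCA in 1 of 46 (2.17%), against 5.2% and 4.49%.

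**Figure D2:**
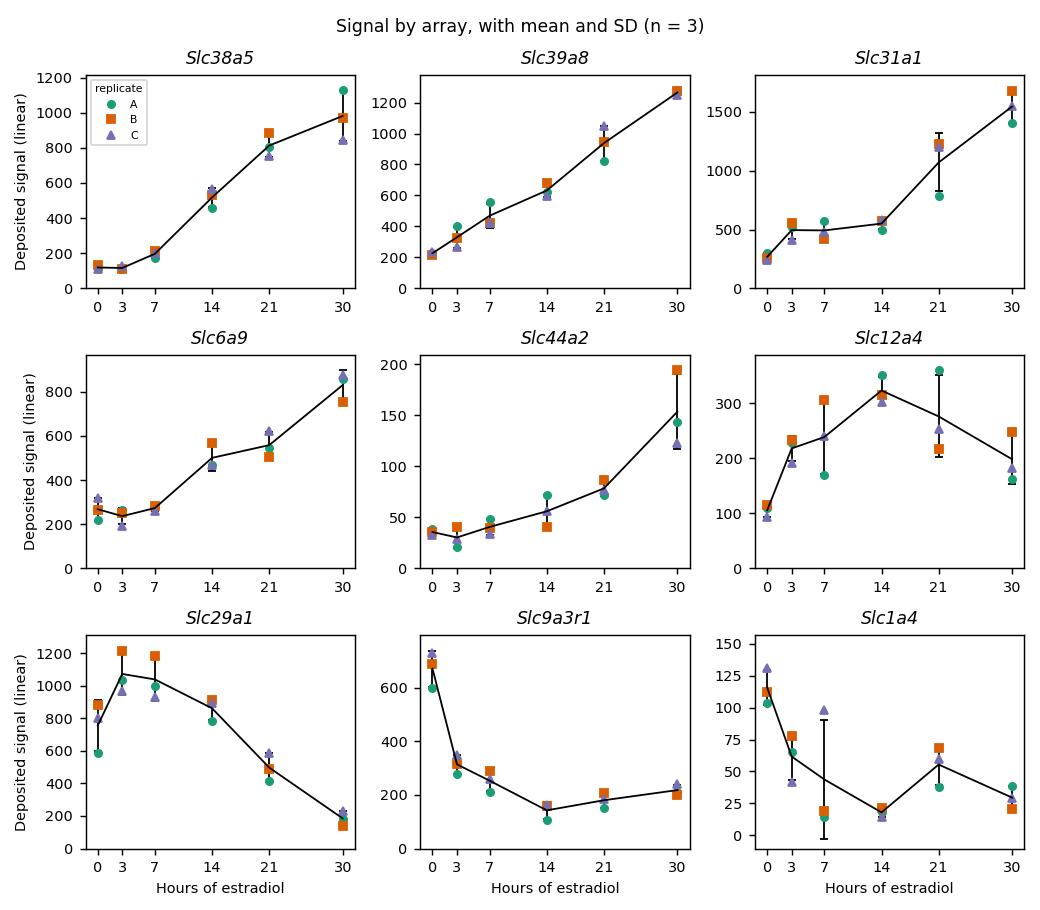
Deposited signal (vertical axis, linear, own scale in each panel) against hours of estradiol for 9 genes; coloured points are replicates A, B and C, and the black line and bars are the mean and SD of 3 arrays. Slc38a5, Slc39a8 and Slc31a1 ended highest at 30 h, Slc12a4 was highest at 14 h, and Slc9a3r1 had fallen to 314 by 3 h.

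Carriers of amino acids were called in both directions. Of 12 measured members, 3 rose (Slc38a5, Slc6a9 and Slc7a5), 3 fell (Slc1a4, Slc38a2 and Slc3a2) and 6 did not pass the test at 30 h. Slc1a4 was a member only through its 0 h arrays. Slc3a2, counted here by its family prefix, is the heavy chain that takes a carrier to the membrane. Across the array 12.8% of all probe sets were higher and 13.8% lower. Among probe sets with a mean of at least 50 these shares were 23.8% and 25.5%. The same shares are the background of each substrate group below. Slc6a9 (96160_at) encodes GlyT1, which takes up glycine, a building block of heme. Signals of Slc6a9 were 218, 265 and 321 at 0 h, 263, 253 and 194 after 3 h, 279, 281 and 260 after 7 h, 467, 567 and 468 after 14 h, 545, 506 and 624 after 21 h, and 858, 755 and 878 after 30 h. Values up to 7 h overlapped those at 0 h, and all values from 14 h on lay above them. The rise came to 0.93 at 14 h and to 1.61 at 30 h (SE 0.15, limma adjusted p = 8.4e-08).

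Slc7a5, the light chain LAT1, and Slc3a2, the heavy chain CD98 that carries LAT1 to the membrane, together import leucine and other large neutral amino acids. The pair moved in opposite directions. Slc7a5 (104221_at) gave 955, 1350 and 1141 at 0 h, 2397, 2170 and 1690 after 7 h, 892, 1626 and 2475 after 21 h, and 2371, 2264 and 2484 after 30 h. Slc3a2 (99133_at) gave 1584, 2020 and 2147 at 0 h and 1362, 1544 and 1688 after 30 h. Slc7a5 read 2017, 1792 and 1400 after 3 h and 1402, 1639 and 1753 after 14 h. All its arrays at 3, 7, 14 and 30 h lay above 0 h, while those at 21 h spread across it. The arrays of Slc3a2 overlapped between 0 h and 30 h. At 30 h Slc7a5 was higher by 0.88 (SE 0.24, limma adjusted p = 0.00848), and Slc3a2 was lower (-0.53, SE 0.17, limma adjusted p = 0.0233). The call of Slc3a2 was lost without 0 h replicate B or C or 30 h replicate A or B (adjusted p 0.0638 to 0.109) and, at -0.31, with no quantile normalization (adjusted p = 0.25) or with median scaling (adjusted p = 0.387).

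Slc7a8, the light chain LAT2, was called lower at 14 h and 21 h and not at 30 h. Its signals (104214_at) were 482, 240 and 307 at 0 h, 180, 93.9 and 107 after 14 h, 176, 66.7 and 84 after 21 h, and 295, 163 and 136 after 30 h. Arrays at 14 h and 21 h lay below all those at 0 h, and at 30 h they overlapped. The change was -1.27 at 14 h (SE 0.35, limma adjusted p = 0.0184), a call lost without 0 h replicate A or 14 h replicate B or C (adjusted p 0.0618 to 0.112), -1.47 at 21 h (adjusted p = 0.00411) and -0.67 at 30 h (adjusted p = 0.188). No step between neighbouring times was called for Slc7a8, so a return by 30 h was not shown. In each replicate letter its signal at 30 h was below that at 0 h. Replicate A gave its highest signal at 6 of 6 times.

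Slc1a4 (100943_at), the serine and alanine carrier ASCT1, and Slc38a2, the system A carrier SNAT2 that cells raise when amino acids are short, were both lower at 30 h. Slc1a4 signals were 104, 112 and 131 at 0 h, 65.2, 78 and 41.8 after 3 h, 14.3, 18.9 and 97.9 after 7 h, 18.5, 21.3 and 13.9 after 14 h, 38.1, 68.6 and 59.5 after 21 h, and 38.9, 20.3 and 29.1 after 30 h. Every later array was below those at 0 h, and replicate C at 7 h stood far above the other 2. The difference at 30 h was -1.52 (SE 0.39), given as a description because the gene passed the minimum only through its 0 h arrays. Slc38a2 (94433_at) went from 152, 97.7 and 97.9 to 46.5, 49.2 and 51, with no overlap. Its change of -0.96 (SE 0.27, limma adjusted p = 0.011) was no longer called without 0 h replicate A, the brightest of its 0 h arrays (adjusted p = 0.0682), or in the mean over its 4 probe sets (-0.21, adjusted p = 0.37).

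Slc38a10, a widely expressed carrier of the same family, rose early and was not called at the end. Its signals (160414_at) were 241, 320 and 303 at 0 h, 488, 453 and 446 after 3 h, 526, 524 and 567 after 14 h, and 322, 349 and 388 after 30 h. All later arrays lay above those at 0 h. The change was 0.66 at 3 h, 0.93 at 14 h (SE 0.15, limma adjusted p = 0.00027) and 0.39 at 30 h (adjusted p = 0.0703). The 3 h call (adjusted p = 0.0412) was lost when any 1 of 11 arrays was left out, each of the 0 h and 3 h arrays among them (adjusted p 0.0506 to 0.211), and the 7 h call without 0 h replicate A or 7 h replicate B or C (adjusted p 0.0621 to 0.0905). Both were lost with median scaling (adjusted p = 0.0965 and 0.1) and from the compared times alone (0.0747 and 0.0948). The GABA carrier Slc6a13, the serotonin carrier Slc6a4, Slc6a18 and Slc6a20b were called at no time, with changes at 30 h between 0.10 and 0.56.

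The promoters of the 2 genes below are printed because Slc29a1 had the largest fall by the probe sets that met the rule and Slc1a4 held the amino acid response core. Slc29a1 had 8 RefSeq windows, and the one with a GATA word is shown, picked for that word. Other windows of Slc29a1 held CCACCC or CACGTG, and some held none of the words searched. Both genes lie on the minus strand, and capitals are used as above.
Slc29a1, chr17:45596078-45596377, minus strand: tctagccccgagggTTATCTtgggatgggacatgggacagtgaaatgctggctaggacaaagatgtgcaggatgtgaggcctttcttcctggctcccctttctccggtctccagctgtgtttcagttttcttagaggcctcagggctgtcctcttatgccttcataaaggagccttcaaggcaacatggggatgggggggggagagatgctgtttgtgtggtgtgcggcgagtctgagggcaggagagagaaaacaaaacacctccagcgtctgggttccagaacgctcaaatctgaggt
Slc1a4, chr11:20332664-20332963, minus strand: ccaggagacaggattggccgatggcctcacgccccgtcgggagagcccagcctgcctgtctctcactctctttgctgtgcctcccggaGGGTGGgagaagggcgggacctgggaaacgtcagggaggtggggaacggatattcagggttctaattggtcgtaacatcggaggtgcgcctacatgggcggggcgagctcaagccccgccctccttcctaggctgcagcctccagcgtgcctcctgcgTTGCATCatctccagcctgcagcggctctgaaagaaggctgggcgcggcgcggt
In the Slc29a1 window AGATAA stood on the opposite strand at 15 to 20, and in the Slc1a4 window CCACCC stood on the opposite strand at 89 to 94 and TTGCATC at 247 to 253. TTGCATC also stood in a window of Slc44a2, which was higher at 30 h, and of Slc50a1, which was not called.

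Metal and heme carriers rose and fell in about equal numbers. At 30 h 3 of 11 were higher (Slc31a1, Slc39a8 and Slc39a4), 2 lower (Slc39a9 and Slc48a1) and 6 were not called. Slc39a4, the zinc importer ZIP4, gave 384, 401 and 301 at 0 h and 514, 505 and 723 after 30 h without overlap. The change was 0.71 (SE 0.19, limma adjusted p = 0.00864), and its call was lost without 0 h replicate C or 30 h replicate C (adjusted p 0.0548 to 0.0682). It was read by probe set 162284_r_at, whose name ending marks probes that broke a design rule, and its other probe set, 97320_at, went from 9.93 to 27.3 and was not called (0.75, adjusted p = 0.089).

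Slc39a9, the Golgi zinc carrier ZIP9, gave 118, 123 and 91.7 at 0 h and 56.7, 53 and 43.7 after 30 h. Its arrays did not overlap, and the gene fell by 0.86 on the log2 scale (SE 0.21, limma adjusted p = 0.00353). Slc48a1, the heme carrier HRG1, gave 482, 478 and 290 at 0 h and 296, 195 and 132 after 30 h. The groups overlapped at 290 and 296. The change was -0.90 (SE 0.26, limma adjusted p = 0.0135), and it lost its call without 0 h replicate A or B or 30 h replicate C (adjusted p 0.0628 to 0.106) and in a fit of these 6 arrays alone (adjusted p = 0.0504).

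Zinc carriers of the SLC30 family did not pass the test at 30 h. Slc30a9 was called at 21 h only, where 116, 119 and 108 stood against 63, 69.9 and 71.5 at 0 h. This change of 0.70 (SE 0.19, limma adjusted p = 0.0128) was not called without 0 h replicate A or 21 h replicate B (adjusted p 0.0504 to 0.0549), and at 30 h it was 0.50 (adjusted p = 0.0697). Slc30a3 had a change of 0.62 at 30 h (adjusted p = 0.0568). Slc11a2, the iron importer DMT1 through which erythroid cells move iron out of endosomes, gave 195, 237 and 342 at 0 h and 163, 243 and 258 after 30 h, overlapping, with a change of -0.08 (SE 0.24, adjusted p = 0.867). ZIP1 and ZIP7, encoded by Slc39a1 and Slc39a7, had changes of -0.39 and -0.69 and were not called (adjusted p = 0.326 and 0.0716). Of the Slc39a7 arrays at 0 h, replicate A read 189 and the others 493 and 547.

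**Figure D3:**
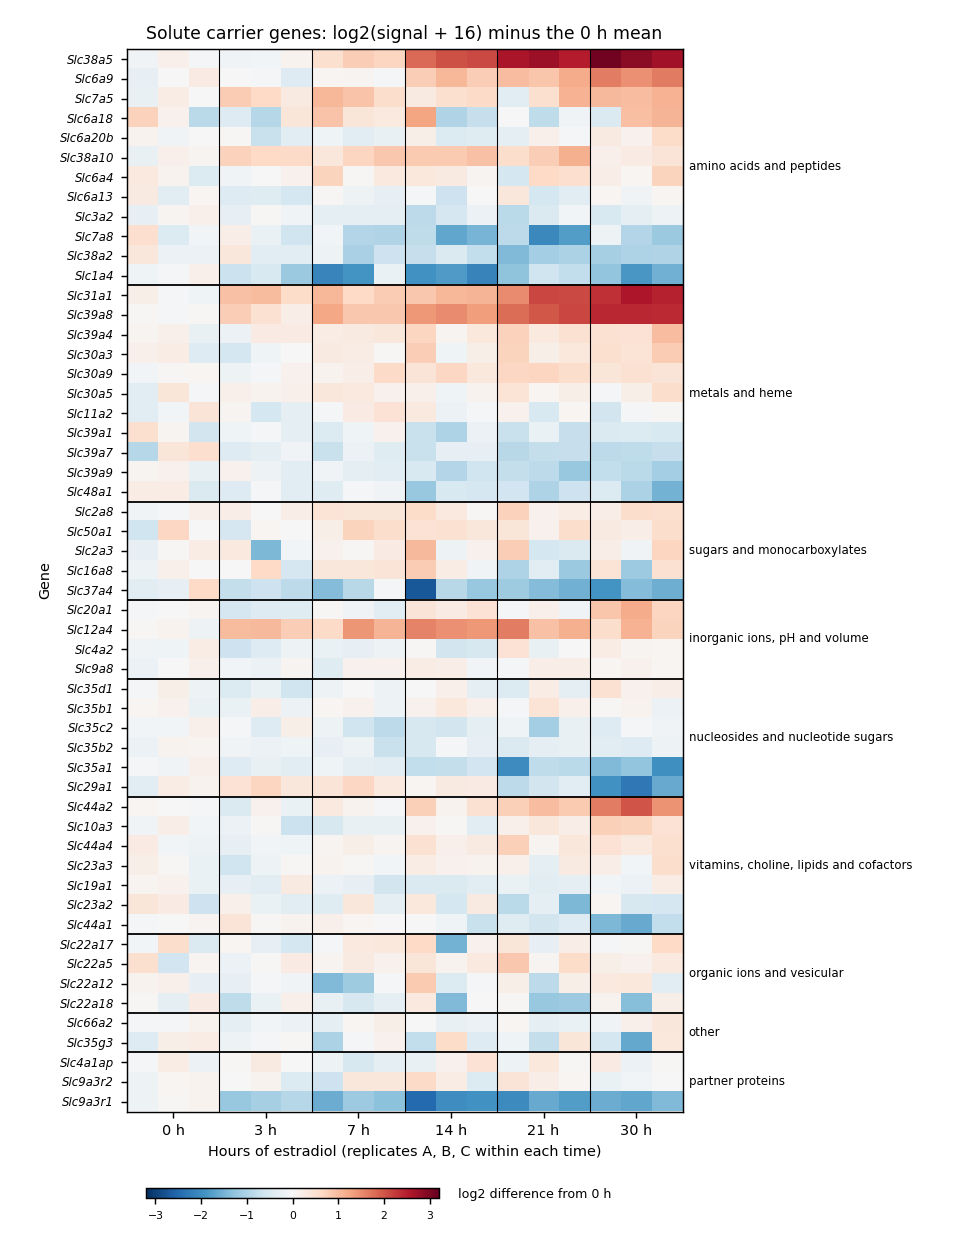
Each row is 1 of the 54 solute carrier genes and each column 1 of the 18 arrays, ordered by hours of estradiol and then by replicate; colour is log2 of the deposited signal + 16 minus the mean of the gene's 3 arrays at 0 h (red higher, blue lower). Most rows stay pale: 29 genes were called at no time, and single arrays stand out in dim genes, as replicate A at 21 h does for Slc35a1.

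Sugar carriers gave 1 rise and 1 fall among 5. Slc37a4 (97430_at), which takes glucose 6-phosphate into the endoplasmic reticulum, gave 181, 198 and 379 at 0 h, 23.1, 121 and 94.9 after 14 h, and 52, 81.1 and 70.9 after 30 h. Arrays at 30 h lay below all at 0 h, among which replicate C stood far above the others. The change was -1.55 (SE 0.42, limma adjusted p = 0.00771), and without 0 h replicate C the adjusted p was 0.0568. Slc2a8, the intracellular glucose carrier GLUT8, went from 176, 188 and 218 to 228, 294 and 285. Its change of 0.56 (SE 0.17, limma adjusted p = 0.0186) lost its call without 0 h replicate A or B or 30 h replicate B or C (adjusted p 0.0511 to 0.0771), with no quantile normalization (0.44, adjusted p = 0.0729), with median scaling (0.45, adjusted p = 0.0654) and in the mean over its probe sets (0.36, adjusted p = 0.152). GLUT3 (Slc2a3), Slc50a1 and the monocarboxylate carrier Slc16a8 were called at no time.

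Both rises among the 4 ion carriers concerned volume and phosphate. Slc12a4 (92450_at) encodes KCC1, which lets potassium and chloride out together and so shrinks the cell. Its signals were 109, 115 and 92.5 at 0 h, 228, 233 and 192 after 3 h, 170, 305 and 240 after 7 h, 351, 315 and 302 after 14 h, 359, 216 and 252 after 21 h, and 163, 248 and 183 after 30 h. Every array with estradiol lay above every array at 0 h, and the mean was highest at 14 h (322 ± 25.4). The change was 0.94 at 3 h (SE 0.21, limma adjusted p = 0.0309), 1.54 at 14 h (adjusted p = 3.83e-05) and 0.90 at 30 h (adjusted p = 0.00257). The 3 h call was lost without any 1 of the 6 arrays compared (adjusted p 0.0528 to 0.142), with 64 in place of 16 (adjusted p = 0.0565) and without the intensity trend (adjusted p = 0.0598).

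Slc20a1, the sodium-phosphate carrier PiT1, gave 256, 264 and 287 at 0 h, 180, 199 and 200 after 3 h, 366, 323 and 377 after 14 h, 262, 303 and 248 after 21 h, and 509, 634 and 439 after 30 h. Its 30 h arrays stood above all others. The change at 30 h was 0.99 (SE 0.14, limma adjusted p = 1.79e-05), and the step from 21 h was 0.89 (adjusted p = 0.000625). At 14 h it was called as well (0.44, adjusted p = 0.0475), a call lost on leaving out any 1 of 13 arrays (adjusted p 0.05 to 0.142) and, with all arrays kept, with no quantile normalization (adjusted p = 0.109), median scaling (0.252), a constant of 1 (0.0552), no intensity trend (0.0687) and the compared times alone (0.106). Neither the anion exchanger Slc4a2 (0.24) nor the sodium-proton exchanger Slc9a8 (0.19) was called at 30 h (adjusted p = 0.449 and 0.457).

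Among the 6 carriers of nucleosides and nucleotide sugars 2 fell and none rose at 30 h. Slc29a1 (95733_at) encodes ENT1, the equilibrative carrier through which nucleosides and many nucleoside drugs cross the plasma membrane. Its signals were 584, 883 and 800 at 0 h, 1034, 1216 and 968 after 3 h, 997, 1186 and 934 after 7 h, 782, 911 and 892 after 14 h, 413, 491 and 588 after 21 h, and 181, 141 and 233 after 30 h. At 3 h and 7 h the arrays lay above those at 0 h without being called (0.52 and 0.49, adjusted p = 0.238 and 0.142), and at 30 h all lay below every earlier array. The change was -1.89 at 30 h (SE 0.17, limma adjusted p = 5.86e-08), of which -1.30 fell between 21 h and 30 h (adjusted p = 9.86e-05). The 21 h call (-0.59, adjusted p = 0.0176) was lost without 0 h replicate B or C or 21 h replicate A or B (adjusted p 0.0514 to 0.105), with median scaling (0.0672) and from the compared times alone (0.0586). A second, dimmer probe set of the gene, 161687_r_at, read 54.4 at 0 h and 50.8 at 30 h and was not called (-0.23, adjusted p = 0.783).

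Slc35a1 brings CMP-sialic acid into the Golgi, where glycans of surface proteins are sialylated. It gave 120, 115 and 142 at 0 h, 18.8, 64.2 and 62 after 21 h, and 37.2, 43.2 and 20 after 30 h. The later arrays lay below all of those at 0 h. Its change was -1.18 at 21 h (SE 0.32, limma adjusted p = 0.0103), which was not called without 21 h replicate A (adjusted p = 0.0656) or from the compared times alone (0.0668), and -1.52 at 30 h (SE 0.32, limma adjusted p = 0.000993). Slc35b1, Slc35b2, Slc35c2 and Slc35d1 were called at no time, and their changes at 30 h ran from -0.20 to 0.37. The sign of Slc35b1 (0.03) was turned by no quantile normalization and by median scaling (-0.01 in both).

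Choline carriers of the SLC44 family differed in direction. Slc44a2 (99445_at), or CTL2, gave 38.3, 35.5 and 33.2 at 0 h, 21.3, 40.9 and 28.8 after 3 h, 48.6, 39.9 and 33.5 after 7 h, 72, 40.2 and 55.8 after 14 h, 72.3, 86.2 and 76.8 after 21 h, and 144, 194 and 123 after 30 h. From 14 h on its arrays lay above those at 0 h, and the difference at 30 h was 1.75 (SE 0.23), or 3.37-fold. This gene passed the minimum only through its 30 h arrays, so that difference is given as a description. Slc44a1 (97425_at), or CTL1, gave 84.4, 88.2 and 95 at 0 h, 63.9, 53.4 and 63.1 after 21 h, and 23.1, 18.1 and 44.6 after 30 h. Its arrays at 30 h lay below all earlier ones, and the change was -1.25 (SE 0.23, limma adjusted p = 0.000248).

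Slc44a4 and Slc10a3, a bile acid carrier relative of unsettled substrate, rose less. Slc44a4 went from 189, 146 and 138 to 222, 199 and 228 after 30 h (0.53, SE 0.17, limma adjusted p = 0.0252), a call lost without 0 h replicate B or C or 30 h replicate A or C (adjusted p 0.0745 to 0.1), with no quantile normalization (0.43, adjusted p = 0.0804) and in the mean over its probe sets (0.37, adjusted p = 0.18). Slc10a3 went from 95, 122 and 95.7 to 188, 181 and 150 (0.76, SE 0.21, limma adjusted p = 0.00854). In neither gene did the arrays overlap. The vitamin C carrier Slc23a2 and its relative Slc23a3 were called at no time.

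Slc19a1, the reduced folate carrier, gave 2 different answers from 2 probe sets. The one that met the rule, 162123_f_at, read 135, 138 and 105 at 0 h and 118, 107 and 150 after 30 h, overlapping, with a change of 0.08 (SE 0.19, adjusted p = 0.822). Its _f_at ending marks probes that may read several related transcripts. The other, 94419_at, read 254, 355 and 263 at 0 h, 169, 142 and 175 after 3 h, 53.6, 64.7 and 19.4 after 7 h, 20.7, 12.7 and 16.6 after 14 h, 21, 24.2 and 20.1 after 21 h, and 16.2, 20.6 and 21.3 after 30 h. Each array with estradiol lay below every array at 0 h. It was called from 7 h on (-2.35, SE 0.27, limma adjusted p = 1.43e-05), and at 30 h the change was -3.09 (SE 0.27, limma adjusted p = 3.19e-08), an 8.49-fold fall. Which of the 2 reads the folate carrier transcript was not tested.

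**Figure D4:**
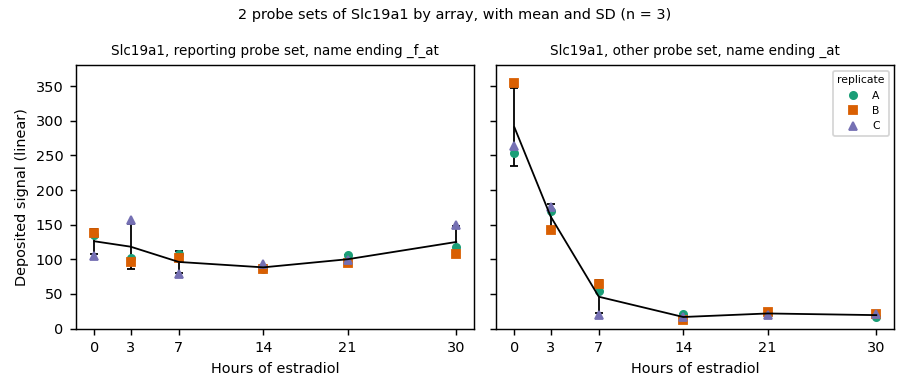
Deposited signal (vertical axis, linear, shared) against hours of estradiol for both probe sets of Slc19a1; points are replicates A, B and C, the line and bars the mean and SD of 3 arrays. The probe set ending in _f_at stayed between 78.4 and 156, and the other went from a mean of 290 to 19.4.

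Such second readings were available for 15 of the 54 genes, through 17 other probe sets, of which 5 had a mean signal of at least 50. At 30 h 4 of the 17 were called: those of Slc31a1 and Slc19a1, one of Slc30a3 near background (2.3 to 16.3, 0.75, adjusted p = 0.0488) and one of Slc11a2. The second DMT1 probe set, 104451_at, went from 127 to 72 without overlap of arrays (-0.62, SE 0.21, limma adjusted p = 0.0299), beside the -0.08 of the reporting one. In 1 gene, Slc31a1, both probe sets were called, and both rose.

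Carriers of organic ions and the remaining families gave no call. The uric acid carrier Slc22a12, the carnitine carrier Slc22a5, Slc22a17 and Slc22a18 had changes at 30 h between -0.28 and 0.26, and Slc66a2 and Slc35g3 of 0.25 and -0.52. The replicates of Slc35g3 read 77.8, 28.8 and 160 after 30 h.

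Of the 3 partner proteins, 1 fell, and it was the only fall among the 4 calls at 3 h. Slc9a3r1 (97243_at) encodes NHERF1, a scaffold that ties the sodium-proton exchanger NHE3 and other membrane proteins to ezrin and the actin cytoskeleton. Its signals were 598, 689 and 729 at 0 h, 279, 314 and 350 after 3 h, 212, 290 and 258 after 7 h, 106, 158 and 164 after 14 h, 150, 207 and 184 after 21 h, and 213, 201 and 241 after 30 h. All 15 arrays with estradiol lay below all 3 at 0 h, and the mean was lowest at 14 h. The change was -1.12 at 3 h (SE 0.19, limma adjusted p = 0.0029), -2.16 at 14 h (adjusted p = 1.61e-07) and -1.49 at 30 h (adjusted p = 3.62e-06). NHERF2 (Slc9a3r2, -0.04) and kanadaptin (Slc4a1ap, 0.12) were not called at 30 h.

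In time, few of the 54 genes were called early. At 3 h 4 differed from 0 h, with Slc31a1, Slc12a4 and Slc38a10 higher and Slc9a3r1 lower, against 1.06% of all probe sets (0.757% higher, 0.306% lower) and 2.09% of those with a mean of at least 50. Of these calls only that of Slc9a3r1 held in all of the alternatives run, and the count at 3 h was 1 or 2 when any of the 0 h or 3 h arrays was left out. At 7 h 7 were called (6 higher, Slc39a8, Slc38a5 and Slc7a5 having joined), against 4.17% of all probe sets (2.48% higher, 1.69% lower) and 8.21% of those with a mean of at least 50. The 7 h call of Slc7a5 (0.88, adjusted p = 0.0409) was lost without any 1 of 12 arrays (adjusted p 0.0503 to 0.168), with no quantile normalization (0.0648), with median scaling (0.148) and without the trend (0.0887). That of Slc38a5 was lost from the compared times alone (adjusted p = 0.0896). At 14 h 13 were called, 7 higher and 6 lower. Of the 46 genes that did not depend on 1 time, 7 were higher and 5 lower. At this time 13.3% of all probe sets were called (6.55% higher, 6.77% lower) and 25.3% of those with a mean of at least 50. Of the 13 calls at 14 h, 8 held in all of the alternatives run. Those of Slc3a2, Slc20a1, Slc7a8, Slc37a4 and Slc39a9 did not, and that of Slc39a9 was lost without any 1 of 5 arrays (adjusted p 0.0605 to 0.139). At 21 h 18 were called, 10 higher and 8 lower, and of those 46 genes 9 were higher and 8 lower. The background was 20.7% of all probe sets (9.75% higher, 10.9% lower) and 38.8% of the brighter ones. Of the 18 calls at 21 h, 11 held in all of the alternatives run. Those of Slc3a2, Slc29a1, Slc37a4, Slc30a9, Slc35a1, Slc39a4 and Slc44a4 did not. The call of Slc39a4 was lost without any 1 of 13 arrays (adjusted p 0.0522 to 0.21), and that of Slc44a4 without any 1 of 14 (adjusted p 0.0522 to 0.254). At least 1 call was made for 25 genes, 14 of them only higher and 11 only lower, and 0 changed direction. Slc44a2 is counted among the 14 and Slc1a4 among the 11, though both were members through 1 time only. Slc31a1, Slc12a4 and Slc9a3r1 were called at all 5 times. First calls came at 3 h for 4 genes, at 7 h for 3, at 14 h for 7, at 21 h for 7 and at 30 h for 4. For genes whose first call was lost in some alternatives, this time is uncertain.

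**Figure D5:**
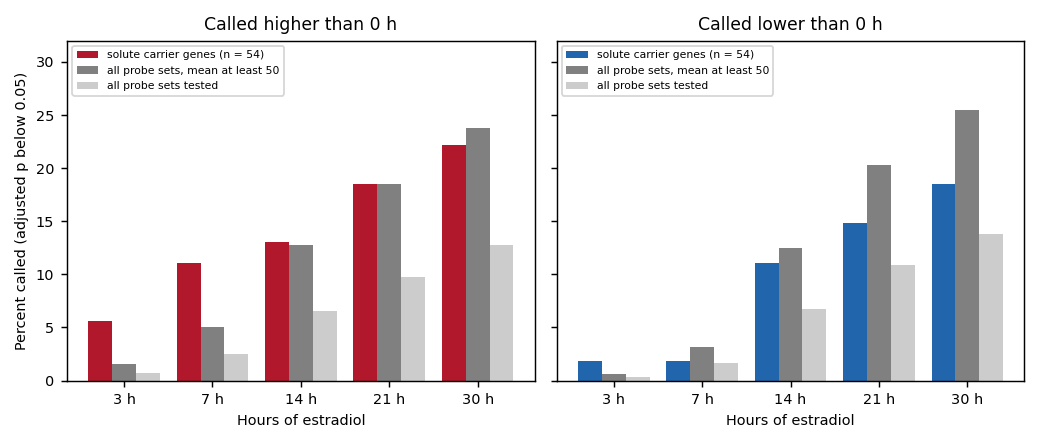
Percent of genes or probe sets called against 0 h (vertical axis) at each time (horizontal axis), higher on the left and lower on the right; coloured bars are the 54 solute carrier genes, dark grey all probe sets with a mean signal of at least 50 and light grey all probe sets tested. At 30 h 22.2% of the solute carrier genes were called higher and 18.5% lower, beside 23.8% and 25.5% of probe sets of like signal. The coloured bars count Slc44a2 and Slc1a4, members through 1 time only.

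Between neighbouring times the calls were fewer. Background here is the share of all probe sets called. Among probe sets with a mean of at least 50 the share was 2.13% from 3 h to 7 h, 4.53% from 7 h to 14 h and 4.46% from 14 h to 21 h. From 3 h to 7 h 1 gene was called (Slc38a5; background 1.06%), and this call was lost without 3 h replicate A or B or 7 h replicate B or C (adjusted p 0.0752 to 0.122). From 7 h to 14 h 4 were called (background 2.33%): Slc38a5 and Slc6a9, which held without each array, and Slc20a1 and Slc9a3r1, which did not (adjusted p 0.071 to 0.173 and 0.111 to 0.188). The former of these pairs of values came without 7 h replicate B or C or 14 h replicate A or C, the latter without 7 h replicate B or C or 14 h replicate A. From 14 h to 21 h 3 were called (background 2.32%): Slc31a1, Slc38a5 and Slc29a1. Slc29a1 lost its call without 14 h replicate B or C or 21 h replicate A or B (adjusted p 0.0577 to 0.0962), and Slc38a5 without any 14 h replicate or 21 h replicate A or B (adjusted p 0.0522 to 0.0924).

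The last step, from 21 h to 30 h, had 5 calls: Slc20a1, Slc6a9 and Slc44a2 higher and Slc29a1 and Slc44a1 lower. That was 9.26% of the 54 genes, beside 4.98% of all probe sets and 9.66% of those with a mean of at least 50. Slc20a1 and Slc29a1 held without each array. Slc44a1 (-0.85) lost its call without any 21 h replicate or 30 h replicate A or B (adjusted p 0.0591 to 0.125). Slc6a9 (0.54) lost it without any 1 of 10 arrays (adjusted p 0.05 to 0.169) and Slc44a2 (0.84), a member through its 30 h arrays, without any 1 of 11, and each of these sets held all 3 arrays at 21 h. From the compared times alone, each call between neighbouring times named here as lost was lost too, and so was that of Slc31a1 from 14 h to 21 h (adjusted p 0.0714 to 0.235).

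Among the 75 solute carrier genes below the minimum, 4 were called at 30 h, beside 6.15% of all probe sets below a mean of 50. Slc16a1, the lactate carrier MCT1, went from 30 to 3.13 (-1.27, limma adjusted p = 0.0029), the zinc carrier Slc39a6 from 39.5 to 13 (-1.08, limma adjusted p = 0.0125), the multivitamin carrier Slc5a6 from 67.1 to 27.4 (-0.93, limma adjusted p = 0.0277), and Slc27a5 from 6.53 to 40.9 (1.16, limma adjusted p = 0.0438).

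Other lists of membrane transport genes are set beside the 26.7% of all probe sets called at 30 h and the 49.2% of those with a mean of at least 50. Of 11 measured pump and channel genes 4 rose and 1 fell at 30 h. Atp7a, the copper pump that acts downstream of CTR1, went from 95.1 to 308 (1.65, SE 0.21, limma adjusted p = 4.19e-06), and Atp1b2, a subunit of the sodium pump, from 61.1 to 757 (3.37, SE 0.31, limma adjusted p = 7.8e-08). The water channel Aqp8 and the proton pump subunit Atp6v1a rose too, by 2.39 and 1.37, and the sodium pump subunit Atp1b3 fell by 0.73. Of 25 ABC transporter genes 3 rose, among them Abcb10 of the mitochondrial inner membrane (2.04), and 6 fell. None of 3 organic anion carriers of the Slco family was called by limma, and 1 of them, Slco3a1, had an unadjusted p below 0.05 (log2 change 0.75, limma adjusted p = 0.115). Of 8 partners and regulators of carriers 3 fell, Slc9a3r1 among them, and Bsg, the chaperone of lactate carriers, went from 1596 to 604 (-1.42, SE 0.30, limma adjusted p = 0.00105).

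Genes of the amino acid response, which cells switch on when amino acids are short and which is also known to raise Slc38a2, Slc3a2 and Slc7a5, mostly fell. Of 10 measured, 7 were lower at 30 h, among them Atf4, its central factor (720 to 390, -0.80, SE 0.17, limma adjusted p = 0.00102), and Asns (-0.54). The other calls were rises of Ddit3 (298 to 1522, 2.25, SE 0.18, limma adjusted p = 1.19e-08) and Aars (0.99). Of the 20 mitochondrial Slc25a carriers left out, 5 rose and 4 fell, a share between the same background values.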

How the data were processed

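Total RNA was hybridized to 18 Affymetrix MG-U74Av2 arrays, 3 at each of 6 times, per the labels. What the authors deposited is 1 linear signal intensity for each probe set and sample. How probes were summarised, any detection call and a genome build are not given in the sources used here. Of 12488 probe sets 66 controls were left out. The constant 16 was added, log2 taken and quantiles normalized between arrays in R 4.3.3. limma 3.58.1 fitted 1 mean per time to all arrays (12 residual degrees of freedom), with eBayes and an intensity trend. The procedure was tested on simulated data. Symbols came from the platform table: 10833 probe sets carried 1, 396 several and 1193 none, and all 54 members matched RefSeq by gene number. Probe sets ending in _f_at, _r_at or _i_at, which read 5 members, are uncertain. Substrate groups follow family prefixes.

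Named were the 12 largest called rises and falls at 30 h, the 4 largest of each other comparison, the 3 smallest F test p-values of each substrate group, the 6 highest mean signals and the 3 genes on either side of the minimum. Other genes were named after their values were seen. Members, gene lists and tests were chosen with earlier results of these data known. Alternatives covered normalization, constant, filters, variance model, array weights, the replicate letter as a block, the arrays fitted, each array left out and the probe set of a gene. Promoter windows came from RefSeq (GRCm38.p6).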

Additional observations from a re-analysis of the deposited data

How the results depend on the processing

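The counts of called solute carrier genes against 0 h stayed within 1.5 times under all alternatives that kept every array, except at 3 h, where 2 were called without the intensity trend and 2 from the compared times alone. Counts between neighbouring times were less stable. From 3 h to 7 h the count was 0 with median scaling, without the trend or from the compared times alone, and 2 with the mean over probe sets. From 7 h to 14 h it was 2 under those first 3 settings. From 14 h to 21 h it was 1 with median scaling and without the trend, and 0 from the compared times alone. From 21 h to 30 h it was 3 with no quantile normalization, median scaling, a constant of 1 or a minimum mean of 100, and 2 from the compared times alone. With each array left out in turn, the counts ran from 1 to 4 at 3 h, 5 to 8 at 7 h, 9 to 14 at 14 h, 13 to 19 at 21 h and 18 to 23 at 30 h, from 0 to 1, 2 to 4, 1 to 4 and 2 to 5 at the 4 steps, and from 18 to 24 for any time. At 30 h 15 of the 22 calls held under every alternative, among them those of Slc44a2 and Slc1a4. Both genes passed the minimum only through their 30 h and 0 h arrays, so their calls are a description. Of genes not called, signs turned for Slc16a8 (-0.03; 0.03 with a constant of 64, -0.29 to 0.48 without single arrays), Slc35b1 (0.03; -0.01 with no quantile normalization and with median scaling, -0.08 to 0.11 without single arrays), Slc22a5 (0.23; -0.07 to 0.45 without single arrays) and Slc9a3r2 (-0.04; -0.14 to 0.03 without single arrays). The cause of these shifts was not tested. The labels do not say what a letter shares across times. Deviations of same-letter arrays correlated from -0.09 to 0.2 (45 pairs, 3 of them over 0.1) and those of different-letter arrays from -0.15 to 0.07 (90 pairs, 0 over 0.1), and 13 of 18 arrays were closest on average to their own letter of the 3, a hint of pairing that not every array bears out. With the letter as a replicate block, 25 genes were called at 30 h, Slc7a8 (-0.67, limma adjusted p = 0.00442) and Slc38a10 (0.39, limma adjusted p = 0.0361) among them. The block ended 4 other calls: Slc20a1 at 14 h (adjusted p = 0.0511), Slc39a4 at 21 h (0.0572), and from 21 h to 30 h Slc6a9 (0.0529) and Slc44a2 (0.0513). Dim probe sets have no detection call here, so low signals set only a loose bound on change.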

Other observations

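In 2 of the 54 solute carrier genes, Slc7a8 and Slc35b1, the same replicate letter gave the highest signal at 6 of 6 times (3.7% of these genes, against 1.15% of all probe sets). For Slc7a8 it was replicate A, with 482 at 0 h and 295 at 30 h, and for Slc35b1 replicate B, with 582 and 567. What a letter stands for beyond its name was not analysed here.

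The 2 carriers left out by name moved far. Slc4a1 went from 66.7 to 3652 (5.40, SE 0.37, limma adjusted p = 1.37e-09), and Slc2a1 from 260 to 22.4 (-2.63, SE 0.79, limma adjusted p = 0.0176). Replicates spread widely: the summed signal of both genes ran from 185 to 550 at 0 h, 75.7 to 108 at 3 h and 77.7 to 546 at 7 h.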
